A study of Mus musculus with 8 samples.

Results

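The 8 genes described here encode the D cyclins (Ccnd1, Ccnd2 and Ccnd3), their kinase partners (Cdk4 and Cdk6) and 3 inhibitors of cyclin-dependent kinases (Cdkn1a, Cdkn1b and Cdkn2d). They were chosen by name from the 32285 genes of a single-cell count table of mouse bone marrow cultures, and all 8 were present in it. Both groups of cultures held whole bone marrow, grown during 1 week over irradiated AFT024 feeder cells (fibroblasts of mouse embryonic liver), in long-term culture medium with hydrocortisone. In the first group deoxycholic acid, a secondary bile acid, was present at 35 µM. The second group was the media control, with no bile acid. Lineage-negative cells, which lack the surface markers of most finished blood cells, were sorted before capture, so mature cells that carry those markers were depleted. The age, strain and number of mice are not given in the labels. Each group has 4 samples by its labels. Cell names in the table show the group alone, so each group was handled as 1 library. No difference below has a replicate check, no test was possible, and every interval is an exact 95% interval that covers counting error only.

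D cyclins bind Cdk4 or Cdk6 in the G1 phase of the cell cycle. The active kinase phosphorylates the retinoblastoma protein, which releases E2F transcription factors that turn on genes for DNA replication. Cdkn2d, a member of the INK4 family, binds Cdk4 and Cdk6 and keeps cyclin D from joining them, while Cdkn1a (p21) and Cdkn1b (p27) belong to the Cip/Kip family and act mainly on cyclin E and cyclin A complexes with Cdk2. In neutrophil formation, cells divide as progenitors and as precursors that make primary and secondary granules, and then leave the cycle for good while they finish maturing.

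Promoter windows, from 250 bases before to 50 bases after a gene's start, were available for 6 of the 8 genes in the RefSeq table of GRCm38.p6. The windows of Cdk4 and Cdkn2d are shown because these were the measured members with the largest ratios between the libraries, and that of Cdkn1a because its level in cells with and without mitotic transcripts differed by stage. All 3 are written 5′ to 3′ on the gene's strand. Capitals mark the E-box CACGTG, the core bound by Myc-family proteins, in Cdk4, and the p53 half-site core ACATGTC, read on both strands, in Cdkn1a. In Cdkn2d they would mark either motif or TTTNNCGC, an E2F-type motif.
Cdk4, chr10:127063285-127063584, plus strand: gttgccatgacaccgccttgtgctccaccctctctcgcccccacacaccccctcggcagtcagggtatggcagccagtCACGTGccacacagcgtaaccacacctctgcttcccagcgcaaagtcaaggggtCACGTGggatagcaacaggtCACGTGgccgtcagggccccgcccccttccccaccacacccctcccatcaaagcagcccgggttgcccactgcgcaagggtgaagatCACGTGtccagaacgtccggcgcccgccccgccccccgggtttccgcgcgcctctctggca
Cdkn2d, chr9:21291160-21291459, minus strand: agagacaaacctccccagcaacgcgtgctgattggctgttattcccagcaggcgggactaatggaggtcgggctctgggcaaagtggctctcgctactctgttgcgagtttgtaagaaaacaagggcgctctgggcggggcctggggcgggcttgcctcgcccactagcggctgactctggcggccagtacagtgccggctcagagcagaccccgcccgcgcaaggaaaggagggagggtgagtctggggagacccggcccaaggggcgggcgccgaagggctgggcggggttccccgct
Cdkn1a, upstream start, chr17:29090729-29091028, plus strand: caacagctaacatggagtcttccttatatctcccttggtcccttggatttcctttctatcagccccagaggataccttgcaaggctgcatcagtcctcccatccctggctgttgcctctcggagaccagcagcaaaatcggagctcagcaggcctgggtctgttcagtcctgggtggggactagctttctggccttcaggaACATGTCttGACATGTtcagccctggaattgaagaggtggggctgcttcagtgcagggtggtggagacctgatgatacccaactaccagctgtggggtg
The Cdk4 window held 4 copies of CACGTG, which lay apart from each other. At least 1 copy was present in 7.15% of the 32851 windows of the same length, and at least 4 copies in 8 of them (0.0244%). The Cdkn1a window held 2 copies of ACATGTC in opposite directions, a motif present in 2.01% of windows, and the window at the gene's second start held none. The Cdkn2d window held none of the 3 motifs, and TTTNNCGC was present in 5.17% of windows. The Cdk6 window held 1 CACGTG and 1 TTTNNCGC. A match is a description of the letters and does not show that a factor binds there.

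The deoxycholic acid library held 8520 cell barcodes with 131341422 UMIs (unique molecular identifiers, each standing for 1 captured transcript), and the media control library 9346 barcodes with 183462851 UMIs. Filters left 7755 deoxycholic acid cells (median 14424 UMIs) and 8495 media control cells (median 18831 UMIs). The libraries shared 25 barcodes. Levels are given as CPM, counts per 1e6 UMIs summed over all cells of a stage or cluster. These counts come from the 3′ ends of transcripts and were not divided by transcript length, so levels of different genes are not ranked against each other. Sums and shares over several genes count UMIs and are compared across stages, clusters or libraries.

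Cells were placed along neutrophil maturation by 3 genes that are not among the 8: Elane (neutrophil elastase, a primary granule enzyme), Ngp (neutrophilic granule protein, of secondary granules) and Retnlg (resistin-like gamma, of late neutrophils). A gene counted as present at 10 or more UMIs per 10000 UMIs of the cell. The order of stages, with the numbers of deoxycholic acid and media control cells, was Elane only (950 and 1044), Elane and Ngp (2422 and 2825), Ngp only (3400 and 3437), Ngp and Retnlg (416 and 498) and Retnlg only (51 and 61). A further 513 deoxycholic acid and 623 media control cells had none of the 3 genes at that level, and 3 and 7 cells with Elane and Retnlg together were left aside. The summed level of 4 primary granule genes that were not used for the staging was 13525 CPM in deoxycholic acid and 15830.2 CPM in media control cells of the Elane-only stage, and 207 and 299.9 CPM in cells with Ngp and Retnlg. The summed level of 5 late genes was 45.8 and 41.3 CPM in Elane-only cells, and 1929 and 2173 CPM in cells with Ngp and Retnlg. Median depth differed along the stages, at 18571 UMIs in deoxycholic acid and 26190 in media control cells of the Elane-only stage and at 4683 and 5541 UMIs in Retnlg-only cells.

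The share of cycling cells was high up to the Ngp-only stage and low after it. A cell was called cycling when at least 3 of 3000 randomly kept UMIs came from 20 genes of G2 and M phase, none of which is a member. The summed level of these genes was 1672 CPM in deoxycholic acid and 1711 CPM in media control Elane-only cells, and 3491 and 3171 CPM in Ngp-only cells. It was still 1150 and 1236 CPM in cells with Ngp and Retnlg, and 81.7 and 81.2 CPM in Retnlg-only cells. Of Elane-only cells, 61.2% were cycling with deoxycholic acid (58.0 to 64.3) and 65.8% in the media control (62.8 to 68.7). The highest shares were in cells with Elane and Ngp, at 77.9% with deoxycholic acid and 78.9% in the media control. Ngp-only cells had 66.5% and 64.8%, above Elane-only cells with deoxycholic acid and below them in the media control. The Ngp-only stage was mixed by cluster (described below). Cluster 1, mature neutrophil-like with a summed mitotic level of 300.1 CPM, held 21.8% of its deoxycholic acid and 20.9% of its media control cells. Cluster 7, at 5759 CPM, held 16.7% and 16.5%. In that stage 633 deoxycholic acid and 655 media control cells had no mitotic UMI among 3000. In cells with Ngp and Retnlg the cycling shares were 17.1% with deoxycholic acid (13.4 to 21.3) and 15% in the media control (11.8 to 18.7). None of 45 deoxycholic acid and none of 52 media control Retnlg-only cells was cycling, which by the limit of 3 counts allows shares of up to 6.67% and 5.77%, and by the exact interval 7.87% and 6.85%. With 2 mitotic UMIs as the requirement, 2 of the 45 deoxycholic acid cells (4.44%) and none of the 52 media control cells were cycling. Free RNA in the droplets can add UMIs to any cell, and its part in these shares was not tested.

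The UMIs of D cyclins changed from mainly Ccnd2 to mainly Ccnd3 along maturation, in both libraries. Ccnd2, which encodes the D cyclin known for its part in the growth of blood progenitors and B cells, was at 179.8 CPM in deoxycholic acid and 165 CPM in media control cells of the Elane-only stage. It was at 87.6 and 76.0 CPM in cells with Elane and Ngp, at 14.5 and 12.7 CPM in Ngp-only cells, and at 8.64 and 8.62 CPM in cells with Ngp and Retnlg, where 14 of the 34 media control UMIs came from 1 cell. Without the cell with most Ccnd2 UMIs in each library, that stage had 7.53 CPM with deoxycholic acid and 5.12 CPM in the media control. The lower value of each of these stages lay above the higher value of the next. In Retnlg-only cells no Ccnd2 UMI was found with deoxycholic acid, which allows up to 11.7 CPM. The media control had 14.5 CPM there (4.71 to 33.8), from 5 UMIs. Between Ngp-only and Elane-only cells the log2 ratio of Ccnd2 was -3.63 with deoxycholic acid (-3.75 to -3.51) and -3.70 in the media control (-3.82 to -3.58).

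Ccnd3 encodes the D cyclin that T-cell precursors need to multiply and that red cell precursors use to set their number of divisions. It went the other way, at 66.7 CPM in deoxycholic acid and 60.3 CPM in media control Elane-only cells and at 167 and 149 CPM in cells with Elane and Ngp. It reached 229 and 212 CPM in Ngp-only cells and was at 216 and 209 CPM in cells with Ngp and Retnlg, where the values of the libraries overlapped with those of the stage before. In the few Retnlg-only cells it was still at 194.5 CPM with deoxycholic acid (144 to 256) and 165 CPM in the media control (125 to 214). Ccnd3 was therefore about as high in cells with Ngp and Retnlg, of which few were cycling, as in the Ngp-only stage, where most were.

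The sum of the 3 D cyclins varied little up to cells with Ngp and Retnlg, while its make-up turned over. It was 249 CPM in deoxycholic acid and 228 CPM in media control Elane-only cells, 245 and 227 CPM in Ngp-only cells, and 226 and 218 CPM in cells with Ngp and Retnlg. In Retnlg-only cells it was lower, at 194.5 and 179.8 CPM, from 50 and 62 UMIs. Ccnd2 gave 72.3% of D cyclin UMIs with deoxycholic acid and 72.5% in the media control in Elane-only cells, 34.3% and 33.7% in cells with Elane and Ngp, and 5.94% and 5.6% in Ngp-only cells. Ccnd3 gave 93.8% and 93.5% in Ngp-only cells and 95.7% and 95.9% in cells with Ngp and Retnlg. The share of Ccnd2 differed between the libraries by less than 1 percentage point in each stage from Elane only to Ngp and Retnlg.

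**Figure D1:**
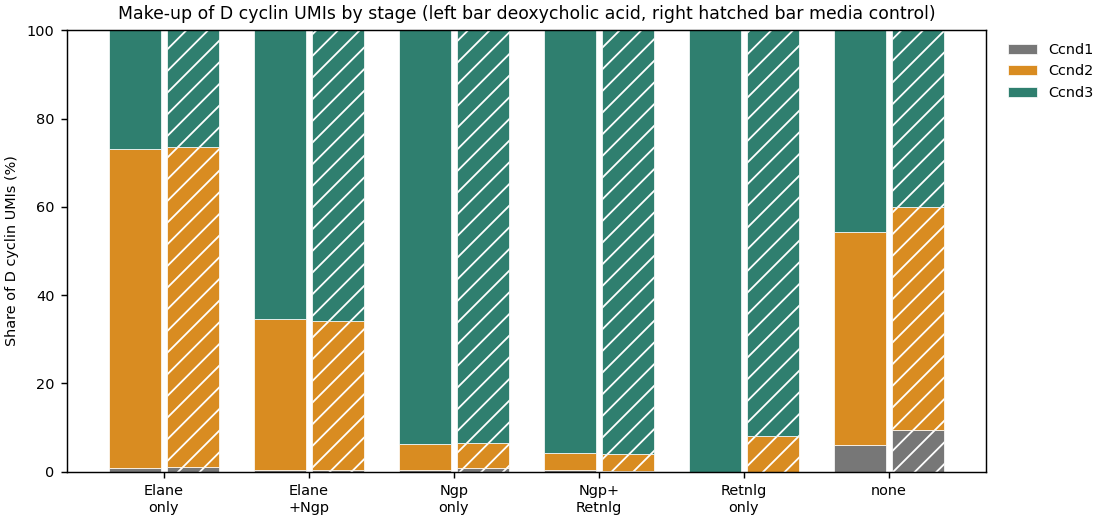
Share of D cyclin UMIs (percent) that came from Ccnd1, Ccnd2 and Ccnd3 in each stage, with deoxycholic acid as the left bar and the media control as the right, hatched bar of each pair. Ccnd2 made up 72.3% and 72.5% in Elane-only cells and 5.94% and 5.6% in Ngp-only cells, and the Retnlg-only bars rest on 51 and 61 cells.

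Ccnd1, which encodes the D cyclin of many epithelial and mesenchymal cells, was near 0 along the neutrophil stages. It was at 2.06 CPM in deoxycholic acid and 2.31 CPM in media control Elane-only cells and at 0.968 and 0.824 CPM in cells with Elane and Ngp. In Ngp-only cells it was at 0.708 CPM (31 UMIs) with deoxycholic acid and 2.08 CPM (115 UMIs) in the media control, but 44 and 28 of those 115 UMIs came from 2 cells, and without the cell with most of them in each library the levels were 0.572 CPM with deoxycholic acid and 1.29 CPM in the media control. Its highest level by stage was in cells with none of the 3 stage genes, at 14.2 CPM with deoxycholic acid (11.5 to 17.4) and 23.0 CPM in the media control (20.2 to 26.1). No Ccnd1 UMI was found in Retnlg-only cells of either library, which allows up to 11.7 CPM with deoxycholic acid and 8.70 CPM in the media control.

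Both kinase partners were lower at each later stage of maturation. Cdk4, the G1 kinase found in most dividing cells, was at 107 CPM in deoxycholic acid and 132 CPM in media control Elane-only cells and at 62.3 and 73.5 CPM in cells with Elane and Ngp. It was at 24.7 and 28.1 CPM in Ngp-only cells and at 14.3 and 15 CPM in cells with Ngp and Retnlg. The levels of the libraries did not overlap between any of these neighbouring stages. Cdk6, the partner known for its role in stem cells and myeloid progenitors, was at 226 CPM in deoxycholic acid and 197 CPM in media control Elane-only cells and at 143 and 118 CPM in cells with Elane and Ngp. It was at 46.8 and 39.5 CPM in Ngp-only cells and at 12.8 and 21 CPM in cells with Ngp and Retnlg, again with no overlap between neighbouring stages. Of the 83 media control UMIs in that last stage 21 came from 1 cell, and without the highest cell of each library the levels were 11.7 CPM with deoxycholic acid and 15.9 CPM in the media control.

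The sum of Cdk4 and Cdk6 was 333 CPM in deoxycholic acid and 329 CPM in media control Elane-only cells, 71.5 and 67.7 CPM in Ngp-only cells, and 27.0 and 36 CPM in cells with Ngp and Retnlg. Ngp-only cells, of which most were cycling, thus held much less of both kinase transcripts than Elane-only cells. In Retnlg-only cells 1 Cdk4 UMI and no Cdk6 UMI were found with deoxycholic acid, and no Cdk4 UMI and 3 Cdk6 UMIs in the media control. A count of 0 there allows up to 11.7 CPM with deoxycholic acid and 8.70 CPM in the media control. The low levels of Ccnd2, Cdk4 and Cdk6 in late cells stand beside primary granule transcripts that were also still found there (above), and the part of free RNA in them was not tested.

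Of the inhibitors, Cdkn1b and Cdkn2d were higher in later stages. Cdkn1b (p27), which binds cyclin E and Cdk2 and is known to gather as cells stop dividing, was at 13.3 CPM in deoxycholic acid and 12.8 CPM in media control Elane-only cells and at 20 and 21.9 CPM in cells with Elane and Ngp. It was at 42.1 and 40.7 CPM in Ngp-only cells and at 64.2 CPM (55.0 to 74.6) and 58.0 CPM (50.8 to 66.1) in cells with Ngp and Retnlg. Neighbouring stages did not overlap up to that point. In Retnlg-only cells Cdkn1b was at 42.8 CPM with deoxycholic acid (21.4 to 76.6) and 75.4 CPM in the media control (49.2 to 110). The log2 ratio of cells with Ngp and Retnlg over Ngp-only cells was 0.61 with deoxycholic acid (0.38 to 0.84) and 0.51 in the media control (0.31 to 0.71).

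Cdkn2d (p19), the INK4 inhibitor, was at 24.2 CPM in deoxycholic acid and 31.5 CPM in media control Elane-only cells and at 60.3 and 81.7 CPM in cells with Elane and Ngp. It was at 106 and 141 CPM in Ngp-only cells and at 101 and 152 CPM in cells with Ngp and Retnlg. The last 2 of these stages overlapped. The media control value was the higher one at each of these 4 stages. In Retnlg-only cells Cdkn2d was at 113 CPM with deoxycholic acid (75.5 to 162) and 95.7 CPM in the media control (65.9 to 134), intervals that overlap.

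Cdkn1a (p21), a target of p53 that stops the cycle after DNA damage, differed less along maturation. It was at 31.8 CPM in deoxycholic acid and 23.3 CPM in media control Elane-only cells, at 31.8 and 29.9 CPM in cells with Elane and Ngp, at 45.3 and 40.4 CPM in Ngp-only cells, and at 49.2 and 46.4 CPM in cells with Ngp and Retnlg. In Retnlg-only cells it was at 163 CPM with deoxycholic acid and 52.2 CPM in the media control, but 16 and 10 of the 42 deoxycholic acid UMIs came from 2 cells, and without the highest cell of each library the levels were 104 CPM with deoxycholic acid and 44.6 CPM in the media control. Cells with none of the 3 stage genes had 108 and 101 CPM.

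**Figure D2:**
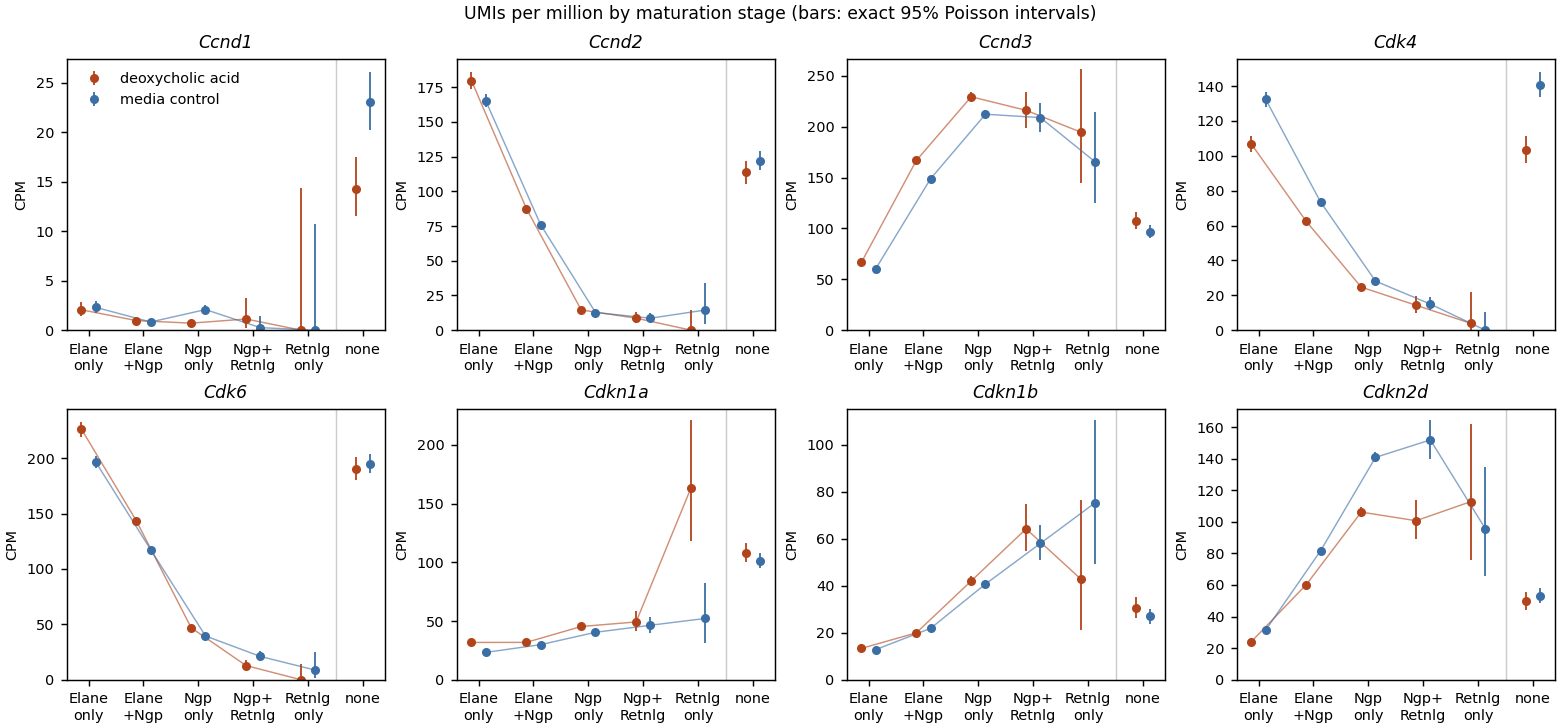
CPM of each of the 8 genes by stage, with deoxycholic acid points left of media control points and exact 95% Poisson intervals as bars; each panel has its own scale, and cells with none of the 3 stage genes stand apart at the right. Ccnd2, Cdk4 and Cdk6 were highest at the Elane-only end of the stages, and Ccnd3, Cdkn1b and Cdkn2d were several fold higher in Ngp-only than in Elane-only cells.

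Ngp-only cells were set against Elane-only cells over all genes with at least 20 CPM and 50 UMIs. Of the 7 members measured there, 3 (Ccnd3, Cdkn1b and Cdkn2d) were at least 2-fold higher in both libraries and 3 (Ccnd2, Cdk4 and Cdk6) at least 2-fold lower, beside 15.8% and 24.4% of 4997 genes. Cdkn1a had log2 ratios of 0.51 with deoxycholic acid and 0.80 in the media control. The log2 ratio of Ccnd3 was 1.78 with deoxycholic acid (1.7 to 1.87) and 1.82 in the media control (1.74 to 1.89), and that of Cdkn2d was 2.14 and 2.16. Those of Cdk4 were -2.11 and -2.23, and those of Cdk6 -2.27 and -2.31. In cells with Ngp and Retnlg over Ngp-only cells, none of 6 measured members was 2-fold apart in both libraries, beside 4.91% of 4604 genes higher and 9.97% lower. In cells with Ngp and Retnlg over Elane-only cells the same 3 members were higher and the same 3 lower, beside 23.0% and 34.7% of 5236 genes. Between the last 2 stages Cdk6 had log2 ratios of -1.87 with deoxycholic acid (-2.41 to -1.39) and -0.91 in the media control (-1.24 to -0.59). Without the cell with most Cdk6 UMIs in each stage and library these were -1.99 and -1.30, so that Cdk6 was then 2-fold lower in both libraries.

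The turnover of members was visible in the share of cells with a UMI at equal depth. With each cell thinned to 3000 UMIs, Ccnd2 was detected in 38.3% of deoxycholic acid and 37.1% of media control Elane-only cells, and in 3.47% and 2.91% of Ngp-only cells. Ccnd3 was detected in 17.4% and 16.6% of Elane-only cells and in 49.2% and 46.8% of Ngp-only cells. Cdkn2d was detected in 6.06% and 8.53% of Elane-only cells and in 24.0% and 31.6% of Ngp-only cells. Without thinning, the Ccnd2 shares were 85.7% with deoxycholic acid and 90.8% in the media control in Elane-only cells and 11.7% and 11.5% in Ngp-only cells, and the Ccnd3 shares were 64.8% and 69.6% in Elane-only and 85.6% and 87.1% in Ngp-only cells. Unthinned Cdkn2d shares were 32.7% and 47.5% in Elane-only and 60.1% and 72.4% in Ngp-only cells. For comparison, Ccnd1 was detected after thinning in 0.181% and 0.180% of Ngp-only cells. Median depths were 11992 UMIs in deoxycholic acid and 15219 UMIs in media control Ngp-only cells.

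Inside the Ngp-only stage, cycling cells were compared with cells that had no mitotic UMI, to see the members apart from the stage. Cdkn2d was at 119 CPM in cycling and 62.8 CPM in non-mitotic deoxycholic acid cells, and at 161 and 83.4 CPM in the media control. The inhibitor was thus higher in the cycling cells of the stage, with log2 ratios of 0.93 with deoxycholic acid and 0.95 in the media control. Cdkn1b was at 43.0 CPM in cycling and 39.2 CPM in non-mitotic deoxycholic acid cells, and at 42.2 and 38.0 CPM in media control cells, with overlapping intervals in both libraries. Ccnd3 was at 237 and 199 CPM with deoxycholic acid and at 217 and 192 CPM in the media control.

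Both kinases and Ccnd2 were also higher in the cycling cells of the stage. Cdk4 was at 26.9 CPM in cycling and 14.2 CPM in non-mitotic deoxycholic acid cells, and at 31.4 and 12.9 CPM in the media control. Cdk6 was at 52.1 and 28.5 CPM with deoxycholic acid and at 44.2 and 20.7 CPM in the media control. Ccnd2 was at 15.7 and 9.25 CPM with deoxycholic acid and at 14.2 and 5.58 CPM in the media control. Cycling cells were also deeper, with median depths of 14514.5 UMIs against 7354 with deoxycholic acid and 18674 against 10012 in the media control. The part of depth, of cluster make-up or of position inside the stage in these differences was not tested. By Ngp level inside the stage, deoxycholic acid cells with under 100 Ngp UMIs per 10000 had Ccnd2 at 50.9 CPM and Cdk4 at 44.9 CPM. Those with 250 or more had 8.5 and 21.6 CPM. In the media control these values were 50.4 and 53.1 CPM under 100 and 5.56 and 23.4 CPM at 250 or more. Cdkn2d was at 87.3 CPM under 100 and 108 CPM at 250 or more with deoxycholic acid, and at 119 and 141 CPM in the media control. Cdkn1a was at 62.8 and 35.9 CPM with deoxycholic acid, and at 65.3 and 33.8 CPM in the media control. The cycling share was 48.8% under 100 and 69.2% at 250 or more with deoxycholic acid, and 48.6% and 67.7% in the media control. Ngp-only cells also included other clusters, such as cluster 12 (2.15% and 2.56%), and their part in these values was not tested.

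Cdkn1a was higher in non-mitotic than in cycling cells of some stages and lower in others. In cells with none of the 3 stage genes it was at 76.1 CPM in cycling and 224 CPM in non-mitotic deoxycholic acid cells, and at 79.6 and 181 CPM in the media control. Those cells were a mix of clusters (described below). Of them, cluster 11 held 18.9% with deoxycholic acid and 21.5% in the media control, cluster 12 20.9% and 14.6%, and the basophil-like cluster 13 14.4% and 19.9%. The part of cell type in the difference was not tested. In cells with Elane and Ngp Cdkn1a was at 30.7 and 48.0 CPM with deoxycholic acid and at 27.8 and 44.7 CPM in the media control. In Ngp-only cells it was the higher in cycling cells, at 47.8 against 34.5 CPM with deoxycholic acid and at 43.7 against 25 CPM in the media control. In Elane-only cells the libraries differed: 24.2 CPM in cycling and 68.6 CPM in non-mitotic deoxycholic acid cells, and 22.8 and 20.9 CPM in the media control. The non-mitotic Elane-only cells numbered 100 and 87, with 111 and 38 Cdkn1a UMIs.

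**Figure D3:**
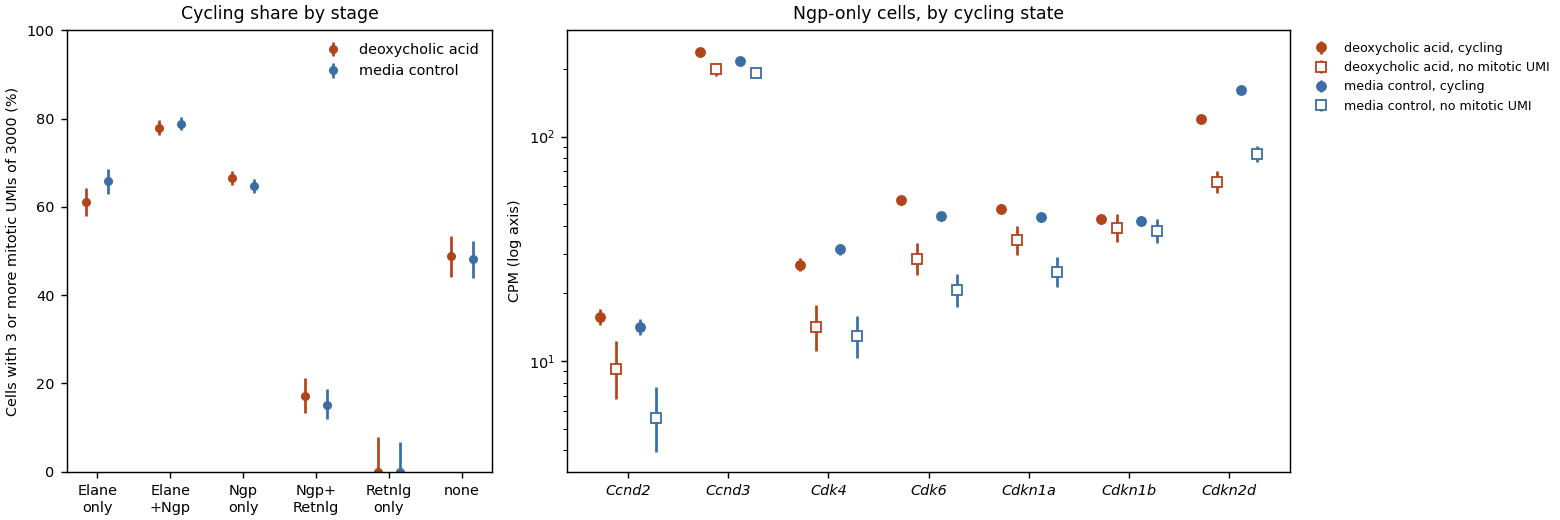
Left, the share of cycling cells by stage (percent, exact 95% binomial intervals), deoxycholic acid left of media control; right, CPM of 7 members on a log axis in Ngp-only cells, filled circles for cycling cells and open squares for cells with no mitotic UMI, with exact 95% Poisson intervals. Cdkn2d lay at 119 and 62.8 CPM with deoxycholic acid and at 161 and 83.4 CPM in the media control, while the Cdkn1b intervals overlapped between states.

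Over all kept cells, deoxycholic acid cells had less Cdkn2d and Cdk4 than media control cells. Cdkn2d was at 71.9 CPM with deoxycholic acid and 92.7 CPM in the media control, a log2 ratio of -0.37 (-0.40 to -0.33). Cdk4 was at 56.5 CPM and 71.1 CPM, a log2 ratio of -0.33 (-0.37 to -0.29). A log2 ratio of 0.32 either way was used as the limit for naming a difference between the libraries. These 2 of the 7 measured members were past it and lower, beside 8.05% of 4670 measured genes, and 0 members were past it and higher, beside 7.64%. In either direction 15.7% of genes passed, and the central 95% of their log2 ratios ran from -0.55 to 0.44. Both members lay inside that range, and none reached 1.5-fold, which 2.98% of genes did.

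The other 5 measured members were closer to level. Ccnd3 was at 172 CPM with deoxycholic acid and 153 CPM in the media control (log2 ratio 0.17), Cdk6 at 120.2 and 107 CPM (0.16), and Cdkn1a at 41.7 and 37.3 CPM (0.16). Ccnd2 was at 74.7 and 71.2 CPM (0.07) and Cdkn1b at 28.7 and 27.9 CPM (0.04, -0.02 to 0.11), beside a median of 0.04 over the measured genes. Ccnd1 was below the minimum level, at 1.78 and 2.89 CPM (-0.69, -0.93 to -0.46).

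Ratios between the libraries also moved with transcript length across genes, and this trend touches the members. Spearman's rho of log2 ratio and longest transcript was 0.42 across 4652 genes, which are not independent replicates. The median log2 ratio was -0.14 among genes with transcripts of up to 1633 bases and 0.14 among those of 5091 bases or more. Less the median of the 200 genes nearest in length, Cdk4 (2053 bases) stayed at -0.32 and Cdkn2d (1423 bases) was at -0.23, under the limit. Cdk6 (11525 bases) was at -0.00, Ccnd2 (6330 bases) at -0.06, Ccnd3 at 0.07, Cdkn1b at -0.06 and Cdkn1a at 0.16. The signs of Ccnd2, Cdk6 and Cdkn1b thus turned with this scaling, and what lies behind the length trend was not tested.

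Within stages, Cdkn2d was the member past the limit most often. Its log2 ratios were -0.38 in Elane-only cells (-0.55 to -0.22), -0.44 in cells with Elane and Ngp (-0.50 to -0.37), -0.41 in Ngp-only cells (-0.46 to -0.35) and -0.59 in cells with Ngp and Retnlg (-0.81 to -0.38). In those stages 9.66%, 7.55%, 4.67% and 9.66% of measured genes were past the limit and lower, and 8.31%, 9.47%, 6.82% and 12.8% past it and higher. In cells with none of the 3 stage genes it was at -0.10 (-0.30 to 0.10). In Retnlg-only cells, where Cdkn2d was below the minimum level, its ratio was 0.24 (-0.53 to 1.00), from 29 and 33 UMIs. Within Ngp-only cells the ratio was -0.43 in cycling and -0.41 in non-mitotic cells, so it was present in both states. The stage ratios of the members were not scaled for transcript length. Over all kept cells that scaling moved Cdkn2d from -0.37 to -0.23, under the limit.

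Cdk4 had log2 ratios of -0.31 in Elane-only cells (-0.39 to -0.23), -0.24 in cells with Elane and Ngp, -0.19 in Ngp-only cells (-0.30 to -0.08) and -0.45 in cells with none of the stage genes (-0.58 to -0.31). Only the last passed the limit, as 14.0% of measured genes did in that stage in each direction. Cdk6 had 0.20, 0.29 and 0.25 in the first 3 stages of maturation, all under the limit, and -0.72 in cells with Ngp and Retnlg (-1.34 to -0.13), from 34 UMIs with deoxycholic acid and 83 UMIs in the media control, of which 21 came from 1 cell. Without the highest cell of each library the ratio was -0.44 (-1.12 to 0.20) and Cdk6 was below the minimum level. Ccnd2 had 0.12, 0.21 and 0.19 in the same 3 stages, and Ccnd3 0.15, 0.16 and 0.11. Cdkn1b had 0.06, -0.13 and 0.05.

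Cdkn1a was past the limit in Elane-only cells, with a log2 ratio of 0.45 (0.29 to 0.61), where 8.31% of measured genes were past it and higher. In the cycling cells of that stage its ratio was 0.09 (-0.13 to 0.30), and in the non-mitotic cells 1.71 (1.17 to 2.28). The make-up of Elane-only cells by cluster (described below) also differed between the libraries. Cluster 8, with Cdkn1a at 120.4 CPM, held 6.0% of these deoxycholic acid and 3.54% of these media control cells, and cluster 11 held 13.2% and 18.8%. The part of this make-up in the ratios was not tested. In cells with Elane and Ngp the Cdkn1a ratio was 0.09 (-0.01 to 0.19). Ccnd1 was past the limit in cells with none of the stage genes, at -0.69 (-1.05 to -0.34). In Retnlg-only cells Ccnd3 alone was measured and was under the limit, beside 17.6% of genes higher and 21.6% lower. In all, 8 pairs of a member and a stage passed the limit, 4 of them of Cdkn2d and 1 each of Cdk4, Cdk6, Cdkn1a and Ccnd1, and 7 passed, all but that of Cdk6, without the cell with most UMIs of the member in each stage and library. In Elane-only cells 1 of 6 measured members was higher and 1 lower. Lower members were 2 of 8 in cells with none of the stage genes and 1 of 7 with Elane and Ngp. They were 1 of 6 in Ngp-only cells and 2 of 5 with Ngp and Retnlg. Over all genes, 4.67% to 21.6% were lower and 6.82% to 17.6% higher by stage. So few members cannot be set apart from these shares.

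**Figure D4:**
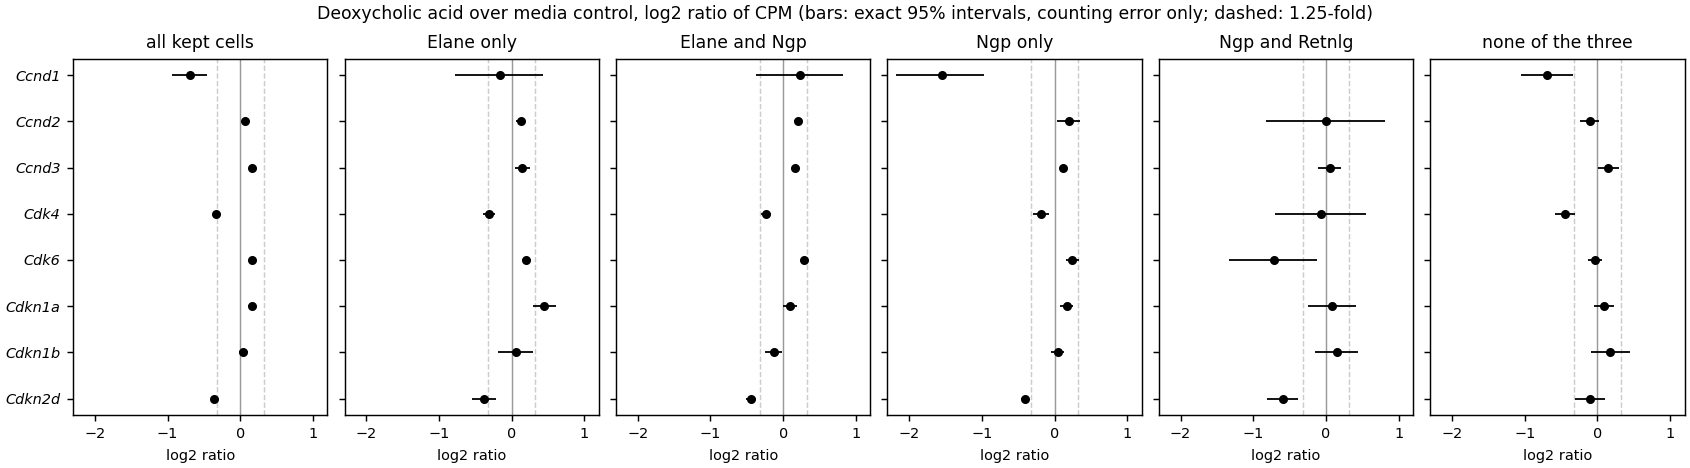
Log2 ratio of CPM, deoxycholic acid over media control, for each member over all kept cells and within 5 stages, with exact 95% intervals for counting error and dashed lines at the limit of 0.32 either way; genes with under 50 UMIs in both libraries together are not drawn. Cdkn2d lies left of 0 in all 4 maturation stages shown, at -0.38, -0.44, -0.41 and -0.59. The Retnlg-only stage is not drawn.

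Clusters of both libraries together, built without the 8 members, gave their levels in cell types outside the neutrophil path. There were 15 clusters, and those whose markers or leading genes did not bear out 1 name are called by their leading genes. Ccnd2, Cdk4 and Cdk6 were high in the granulocyte-monocyte progenitor-like clusters 4 and 6, with Ccnd2 at 149 and 165 CPM, Cdk4 at 107 CPM in each, and Cdk6 at 170 and 196 CPM. They were low in the mature neutrophil-like cluster 1, at 5.54, 9.33 and 14.2 CPM. Cdk6 was highest in cluster 15, led by Ctla2a, Hbb-bt and Nrgn, at 376 CPM, where Ccnd2 was also at its highest, 199 CPM. Of the markers fixed for stem and multipotent progenitors 7 of 8 were raised in that cluster, and of those for megakaryocyte and erythroid progenitors 5 of 8.

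Ccnd3 and Cdkn2d were both highest in cluster 7, an immature neutrophil-like cluster led by 2500002B13Rik, Ltf and Adpgk, at 259.7 and 177 CPM. This cluster also had the highest summed mitotic level, 5759 CPM, against 300.1 CPM in cluster 1. Cdkn1b was at 55.0 CPM in cluster 7 and at 53.8 CPM in cluster 1, and at 10.2 and 12.4 CPM in clusters 6 and 4. Across the 15 clusters Ccnd3 and Cdkn2d had a Pearson r of 0.89, Ccnd2 and Cdk6 0.89, Ccnd2 and Cdk4 0.86, and Ccnd2 and Ccnd3 -0.83. The clusters share libraries and differ in depth, so these are descriptions.

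Cdkn1a was highest in the basophil-like cluster, at 247 CPM (224 to 272), where Prss34, Mcpt8 and Cpa3 were among the leading genes. It was at 134 CPM in cluster 14, at 127 CPM in cluster 12, led by Vcan and S100a4, and at 120.4 CPM in cluster 8, led by Bnip3 and Ankrd37, genes known to respond to low oxygen. In the 10 clusters other than these and cluster 15 it was between 18.8 and 42.9 CPM.

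Ccnd1 had 1 cluster of its own. Cluster 14 (64 deoxycholic acid and 86 media control cells, 0.825% and 1.0% of kept cells) was led by Cdkn2a, Cald1 and Ptn and had Ccnd1 at 255 CPM (225 to 289), with Cdk4 at 220.3 CPM, Cdk6 at 25.7 CPM and Cdkn2d at 12.4 CPM. Of 7 markers of the stromal feeder layer 5 were raised there, with a summed level of 362 CPM against 1.58 CPM in other cells and 1 marker at 0, but none led the cluster and its median depth was 3409 UMIs, so it was not named. It held 33.3% of the Ccnd1 UMIs of the deoxycholic acid library and 37.1% of those of the media control library, and cluster 11, led by Hpgd, Fabp5 and Spp1, held 19.0% and 28.7%. Without clusters 11, 14 and 15, which had Ccnd1 at 10 CPM or more, the log2 ratio of Ccnd1 between the libraries was -0.08, and that of Cdk4 was -0.27, under the limit of 0.32. Within cluster 11 the log2 ratio of Ccnd1 was -0.70 (-1.24 to -0.18) and within cluster 14 it was -0.35 (-0.77 to 0.06).

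The direction of the differences between the libraries could be read cluster by cluster. Cdkn2d was lower with deoxycholic acid in 14 of 14 clusters with enough UMIs, from -1.86 to -0.25 on the log2 scale with a median of -0.48, and the interval lay below 0 in 12. Cdk4 was lower in 14 of 15 clusters (median -0.22, interval below 0 in 8) and Cdk6 higher in 13 of 14 (median 0.29, interval above 0 in 12). Ccnd2 was higher in 14 of 15 clusters (median 0.17, interval above 0 in 8), Ccnd3 in 10 of 15, Cdkn1a in 10 of 15 and Cdkn1b in 5 of 14. The clusters of a library are not replicates of its condition. How many of all genes kept the same direction in as many clusters was not counted. These ratios were not scaled for transcript length. With that scaling over all kept cells, Cdk6 was at -0.00, Ccnd2 at -0.06, Cdkn2d at -0.23 and Cdk4 at -0.32.

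**Figure D5:**
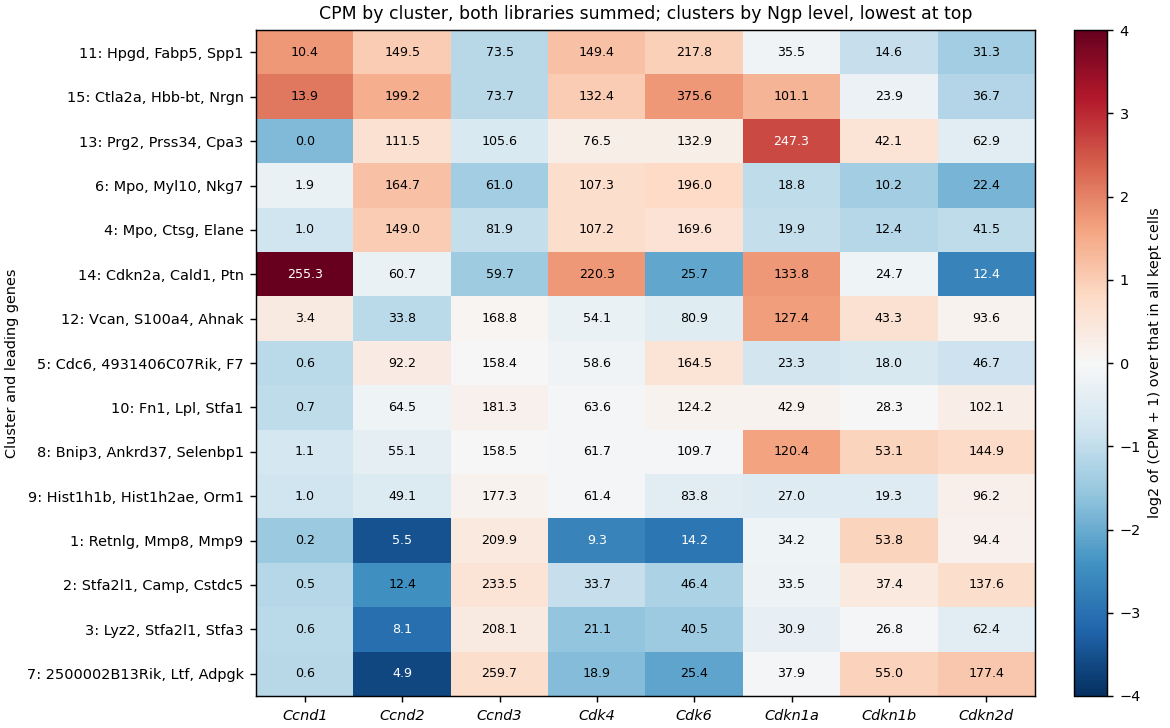
CPM of each member (numbers) in 15 clusters of both libraries together, ordered by Ngp level from lowest at the top, with colour for the log2 of (CPM + 1) over that in all kept cells. Ccnd1 stands out in cluster 14 at 255 CPM and Cdkn1a in cluster 13 at 247 CPM, while Ccnd2, Cdk4 and Cdk6 are low in clusters 1, 3 and 7.

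The genes most like each member in level over the 15 clusters were taken as the 3 with the highest Pearson r of log2(CPM + 10). For Ccnd2 these were Adi1, Cnpy2 and Uqcc3 (0.98 each), and for Ccnd3 they were Oip5os1 (0.98), E2f2 and Tbc1d10b (0.97 each). For Cdk4 they were Arpc5l (0.99), Tfam and Bcl7c (0.98 each), and for Cdk6 Bcap29, Prpf4b and Alkbh1 (0.97 each). For Cdkn2d they were Tbc1d10b (0.92), Smarcc2 and Retreg2 (0.91 each), and for Cdkn1b Nr3c1 (0.95), Flii and Fnip1 (0.94 each). For Cdkn1a the values were lower, with Spag9 (0.89), Gna13 (0.88) and Csnk1d (0.86). For Ccnd1 they were Cyb5r3 (0.96), Ppp2r2a (0.95) and Pcnp (0.94), and outside cluster 14 Ccnd1 reached at most 13.9 CPM.

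The targets of the D cyclin kinases and the factors they release were measured in the same cells. E2f2, an E2F factor that activates replication genes, was at 105 CPM in deoxycholic acid and 99.6 CPM in media control Ngp-only cells and at 12.4 and 12.6 CPM in Elane-only cells, log2 ratios of 3.08 and 2.99. Rb1, the retinoblastoma gene, was at 46.1 and 35.0 CPM in Ngp-only cells and at 13.7 and 11.2 CPM in Elane-only cells. E2f3, another activating E2F, was lower in Ngp-only cells, with log2 ratios of -0.77 with deoxycholic acid and -0.89 in the media control. Between the libraries, 8 of the 13 pocket protein and E2F genes were measured, 2 of them past the limit and higher with deoxycholic acid (Rb1 at 0.41 and E2f3 at 0.62 log2) and none lower, with a median of 0.14. Over all 4670 measured genes 7.64% were past the limit and higher and 8.05% lower. The library ratios of this list and of those below were not scaled for transcript length. E2f8, a repressing E2F, was at -0.13, and Tfdp1, the dimer partner of E2F factors, at 0.01.

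Genes of the later cycle showed no common direction between the libraries. All 20 mitotic genes were measured, with 2 past the limit and higher (Nusap1 at 0.40 and Mki67 at 0.35 log2), 2 lower (Cdk1 at -0.64 and Ube2c at -0.39) and a median of 0.16. Of all measured genes 7.64% were past it and higher and 8.05% lower. Top2a, which untangles DNA for mitosis, was at 442 CPM with deoxycholic acid and 359 CPM in the media control (0.30), and Birc5, a mitotic and survival protein, at 199 and 227 CPM (-0.19). Of 18 DNA replication genes 17 were measured, with none higher, 2 lower (Pcna at -0.58 and Gins2 at -0.38) and a median of -0.00. The sliding clamp gene Pcna was at 113 CPM with deoxycholic acid and 169 CPM in the media control, while Rrm1, Rrm2 and Mcm7, also of DNA synthesis, were at log2 ratios of 0.14, -0.05 and 0.03. Of the 7 cyclins and kinases of the later cycle, 3 of which (Cdk1, Ccnb1 and Ccnb2) are also among the mitotic genes, Cdk1 was the only one past the limit, and Ccna2, of S and G2 phase, was at 0.18, Ccnb1 at 0.05 and Ccnb2 at 0.14.

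Along maturation, Cdk2, the partner of cyclins E and A, was at 33.7 CPM in deoxycholic acid and 40.0 CPM in media control Ngp-only cells and at 12.6 and 16.1 CPM in Elane-only cells, the opposite direction to Cdk4 and Cdk6. Of the 5 other CDK inhibitor genes only Cdkn3, a phosphatase that acts on Cdk1 and Cdk2, was measured, at a log2 ratio of -0.07 between the libraries. Cdkn2c (p18), the other INK4 inhibitor with a known role in blood cells, was below the minimum, at 11.9 and 12.2 CPM in Ngp-only cells and 1.11 and 1.35 CPM in Elane-only cells. Cdkn2a, which leads cluster 14, was at 24.8 CPM with deoxycholic acid and 55.4 CPM in the media control in cells with none of the stage genes. Of 15 genes of CDK activation, cyclin turnover and chaperones 7 were measured, with none higher and 1 lower, Cks1b, which helps degrade p27, at 122 CPM with deoxycholic acid and 169 CPM in the media control (-0.47). Of all measured genes 8.05% were past the limit and lower. Cks2, Cdc37, a chaperone partner of Cdk4, and Cdc25a, a phosphatase that activates Cdk2, were at -0.14, 0.09 and 0.10. Genes named here for passing the limit, and Cdk2, Rb1, Cdkn2c, Cdkn2a and Myc, were chosen after their values were seen.

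Of 13 p53 targets other than Cdkn1a 4 were measured and none passed the limit in either direction, with a median log2 ratio of -0.03. Mdm2, which marks p53 for degradation, was at 0.20, Ccng1 at 0.08, Bax, a death effector, at -0.15, and Btg2, an antiproliferative gene, at -0.21. Mdm2 was higher at each later stage, at 17.9 CPM in deoxycholic acid and 18.0 CPM in media control Elane-only cells, 55.3 and 48.7 CPM in Ngp-only cells, and 76.6 and 68.2 CPM in cells with Ngp and Retnlg, while Bax was lower in Ngp-only than in Elane-only cells, with log2 ratios of -1.24 and -1.09.

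Of 14 regulators of D cyclin transcription 6 were measured, with 2 higher with deoxycholic acid, the AP-1 genes Jun (509 CPM with deoxycholic acid and 349 CPM in the media control, 0.54) and Fos (183 and 138 CPM, 0.41). Gfi1, a repressor needed for neutrophil formation, was lower (-0.38), and the median was 0.04. Of all measured genes 7.64% were past the limit and higher and 8.05% lower. Cebpe, a factor of secondary granule genes, was at 0.02 and Stat3 at 0.06. Myc, whose family binds the E-box shown for Cdk4, was below the minimum over all cells. It was at 30.8 CPM in deoxycholic acid and 38.6 CPM in media control Elane-only cells, 15.9 and 17.0 CPM in cells with Elane and Ngp, 8.91 and 11 CPM in Ngp-only cells, and 4.13 and 4.56 CPM in cells with Ngp and Retnlg.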

How the data were processed

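Single cells were profiled from 2 groups of cultures, each handled as 1 library. The deposited values are whole-number UMI counts per gene and cell; no step of theirs was repeated. The submitters' processing notes list Cell Ranger 6.0. A target of 8000 cells per sample is named in the labels' protocols. The genome build and annotation were not given in the sources used here.

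Cells with at least 300 genes and at most 10% mitochondrial UMIs were retained, and the cells with the highest 6% of Scrublet scores in each library, ties included, were removed (566 and 568 cells), because the automatic threshold marked under 0.5% of cells. UMIs were summed per library, stage or cluster. Sums have exact Poisson intervals, ratios exact intervals from the binomial split of UMIs, and shares exact Clopper-Pearson intervals. Upper limits for 0 rest on 3 counts. A gene was measured from 20 CPM and 50 UMIs upward, in whichever library was higher. For shares and cycling calls, cells were thinned to 3000 UMIs and shallower cells left out (224 deoxycholic acid and 253 media control cells). Clusters came from 2000 variable genes without the members, 30 components, 15 neighbours and Leiden at resolution 1, with no integration. A name needed 3 markers that reached 20 CPM and exceeded other cells by 0.5 on the log2 scale. Transcript lengths came from GENCODE vM21, matched by symbol. Ratio and interval code was tested on simulated counts. Python 3.11.15, scanpy 1.11.5, numpy 2.4.6, scipy 1.17.1, pandas 2.3.3 and leidenalg 0.10.2 were used.

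The edgeR test planned for the case of separate samples was not run. The text names all 8 members, for each the 3 genes most like it over clusters, and the 4 most abundant measured genes of each list; others were named after their values were seen. The members and lists were chosen with earlier results of these data known. The stage check lists held 4 primary granule genes (4 measured, 2 lower past a log2 ratio of 0.32 with deoxycholic acid, median log2 ratio -0.35), 4 secondary granule genes (4 measured, 1 lower, 0.16) and 5 late genes (2 measured, none past the limit). Their named genes had log2 ratios of 0.18 (Mpo), -0.26 (Prtn3), -0.55 (Ctsg), -0.44 (Ms4a3), 0.26 (Ltf), -0.34 (Camp), 0.07 (Lcn2), 0.29 (Cd177), 0.05 (Mmp8) and 0.17 (Csf3r).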

Additional observations from a re-analysis of the deposited data

How the results depend on the processing

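No paired analysis was possible because the cell names carry no sample letter. The count of members past a log2 ratio of 0.32 between the libraries, 2, was 1 with the mean over cells (Cdkn2d), 1 with the mean of the ratios within stages (Cdkn1a), 1 less the median of genes of like length (Cdk4) and 1 without clusters 11, 14 and 15 (Cdkn2d), an alternative added after seeing the data. It was 0 at a limit of 1.5-fold. The count of genes was 733, 139 at 1.5-fold and 6844 with no minimum. Across 8 alternatives the log2 ratio of Cdkn2d ran from -0.42 to -0.23 and that of Cdk4 from -0.39 to -0.25, each below 0 in 8 of 8. Ccnd2 kept its sign in 7, Cdk6 in 6 and Cdkn1b in 4. Library scaling shifted all genes by 0.06 (TMM) or 0.05 (median of ratios). The mean within stages weights the 51 and 61 Retnlg-only cells like any stage and leaves out ratios with no UMI on a side. Of 16 pairs of a member and a library, 13 at 1000 UMIs and 10 without thinning had the same highest stage by share of cells as at 3000 UMIs. The cycling share of Ngp-only cells was 71.8% with deoxycholic acid and 71.1% in the media control at 2 or more mitotic UMIs, and 57.1% and 56.0% at 5 or more. That of Elane-only cells was 75.7% and 79.5% at 2 or more, and 40.7% and 40.9% at 5 or more. The order of these stages thus depended on the requirement. Counts of members 2-fold apart between stages, of member and stage pairs, and of members with a high cluster stayed within 1.5 times. Without the cell with most UMIs of a member in each stage and library, chosen after seeing the data, 1 measured member (Cdk6) in place of 0 was 2-fold apart between cells with Ngp and Retnlg and Ngp-only cells. Of 263 values with no test, 181 moved by less than their interval (counts, by at most 1.5 times) and 82 by more, none with a change of sign among called values. Rare stages limit the depth: a count of 0 in Retnlg-only cells allows up to 11.7 CPM with deoxycholic acid and 8.70 CPM in the media control.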
